A study of Mus musculus with 16 samples.

Results

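Open chromatin of C2C12 iMyoD1 myoblasts that were induced with doxycycline and deprived of serum at the same time (DM +dox) was compared with that of the same cells left uninduced in growth medium (GM no dox). These are the 2 ends of a design with 4 groups. DM +dox was represented by replicates 2, 3 and 4 and GM no dox by replicates 1 to 4, so 7 of the 16 libraries of the series formed the comparison. The groups that received 1 treatment only, GM +dox (replicates 1 to 4) and DM no dox (replicates 2 to 4), were then set beside the ends. Peaks of the 7 end lists merged into 23779 regions, 7178 of which had a peak in all 7 lists.

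C2C12 is a mouse skeletal myoblast line that proliferates in high serum and forms myotubes when serum is withdrawn. Every group carried the same genotype, the endogenous Myod1 gene plus a doxycycline-inducible transgene for Halo-tagged MyoD1 in a polyclonal population, in which only some nuclei express the transgene after induction. GM no dox cells received vehicle and stayed in growth medium. GM +dox cells received doxycycline for 24 h in growth medium. DM no dox cells received vehicle during 24 h of serum starvation, and DM +dox cells received doxycycline over the same 24 h of serum starvation. Wells were seeded with 75000 cells for GM and 300000 cells for DM, so the effects of density and of medium cannot be told apart. DM +dox replicate 1, a quality outlier for its authors, entered only as an alternative. Peaks were called on mixed cultures, in which more cells with an open region and a wider opening per cell cannot be told apart.

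MyoD1 is a basic helix-loop-helix transcription factor that commits cells to the muscle lineage. As a dimer with E proteins such as Tcf3 and Tcf12, it binds E-boxes, short sites with the letters CANNTG, and prefers the core CAGCTG among them. A related core, CAGGTG, is also bound by E proteins and some repressors. AP-1, a dimer of FOS and JUN proteins that responds to serum and growth factors, binds TGACTCA, RUNX factors bind TGTGGT, and TEAD factors bind the M-CAT site CATTCC. In myoblasts, AP-1 and RUNX sites are frequent in enhancers of growing cells, and E-boxes mark enhancers of muscle genes.

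Example sequences are shown first, as windows of 201 bases around the strongest summit, from GRCm38 (the assembly behind mm10), plus strand, 5′ to 3′. They were chosen with their motifs in view, as examples of regions whose peaks were stronger or present in DM +dox. Capitals mark CAGCTG in the windows of Pknox1, Myom2, Stra6l and Tmem64, and CAGGTG in that of Zfp330; other motifs of the search stay in lower case. Each region is named by the protein-coding gene with the nearest start site.
Pknox1 region, chr17:31574800-31575000: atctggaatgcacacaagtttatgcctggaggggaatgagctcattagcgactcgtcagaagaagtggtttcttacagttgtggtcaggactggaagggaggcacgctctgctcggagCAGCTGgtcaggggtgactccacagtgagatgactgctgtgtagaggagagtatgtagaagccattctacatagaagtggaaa
Myom2 region, chr8:15072927-15073127: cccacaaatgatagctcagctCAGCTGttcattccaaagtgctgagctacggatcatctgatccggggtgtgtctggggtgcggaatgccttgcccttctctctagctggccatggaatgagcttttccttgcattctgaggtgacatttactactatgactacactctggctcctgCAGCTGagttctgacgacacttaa
Stra6l region, chr4:45851718-45851918: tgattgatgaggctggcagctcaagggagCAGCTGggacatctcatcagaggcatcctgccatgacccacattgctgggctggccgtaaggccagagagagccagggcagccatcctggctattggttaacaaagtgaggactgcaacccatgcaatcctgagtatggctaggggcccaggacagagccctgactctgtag
Tmem64 region, chr4:15213240-15213440: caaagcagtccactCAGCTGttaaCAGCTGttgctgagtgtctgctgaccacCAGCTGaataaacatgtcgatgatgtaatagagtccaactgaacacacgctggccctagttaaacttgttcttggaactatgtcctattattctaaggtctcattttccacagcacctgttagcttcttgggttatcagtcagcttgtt
Zfp330 region, chr8:82778041-82778241: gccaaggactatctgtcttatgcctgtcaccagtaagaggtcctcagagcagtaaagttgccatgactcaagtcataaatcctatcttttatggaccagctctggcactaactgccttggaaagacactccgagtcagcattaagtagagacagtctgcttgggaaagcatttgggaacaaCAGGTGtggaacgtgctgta
The Pknox1 and Myom2 windows lie in introns of those genes, the Stra6l window in an intron of Stra6l, and the Tmem64 and Zfp330 windows between genes. The CAGCTG of the Pknox1 window starts 18 bases after the summit, and the Tmem64 window holds 3 CAGCTG sites within 86 bases before the summit.

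The next windows come from regions whose peaks were weaker or absent in DM +dox, on the same assembly and strand. They too were chosen with their motifs in view, and regions without AP-1, such as those near Pik3cd and Mt4, were passed over. Capitals mark the AP-1 site TGACTCA or its reverse complement.
Ccdc130 region, chr8:84336512-84336712: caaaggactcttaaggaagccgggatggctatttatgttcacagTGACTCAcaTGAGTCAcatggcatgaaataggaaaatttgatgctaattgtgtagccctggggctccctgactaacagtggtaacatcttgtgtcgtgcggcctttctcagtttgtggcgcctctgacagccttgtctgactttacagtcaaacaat
Dad1 region, chr14:54222353-54222553: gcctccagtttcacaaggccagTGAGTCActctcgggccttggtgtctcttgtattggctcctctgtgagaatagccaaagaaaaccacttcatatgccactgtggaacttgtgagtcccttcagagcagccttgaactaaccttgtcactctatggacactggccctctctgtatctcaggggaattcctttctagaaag
Ccdc102a region, chr8:94914273-94914473: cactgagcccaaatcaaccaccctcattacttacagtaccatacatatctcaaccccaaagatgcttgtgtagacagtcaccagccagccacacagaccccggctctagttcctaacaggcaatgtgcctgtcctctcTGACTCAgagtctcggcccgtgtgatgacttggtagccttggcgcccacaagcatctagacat
Trabd2b region, chr4:114321979-114322179: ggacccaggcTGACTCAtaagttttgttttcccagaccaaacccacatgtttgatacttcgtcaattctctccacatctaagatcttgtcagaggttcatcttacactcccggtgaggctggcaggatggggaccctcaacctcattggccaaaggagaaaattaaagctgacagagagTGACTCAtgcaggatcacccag
Cit region, chr5:115852458-115852658: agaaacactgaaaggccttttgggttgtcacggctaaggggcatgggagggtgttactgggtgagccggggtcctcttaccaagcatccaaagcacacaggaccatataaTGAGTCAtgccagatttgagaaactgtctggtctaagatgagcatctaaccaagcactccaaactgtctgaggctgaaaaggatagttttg
The Ccdc130, Dad1 and Trabd2b windows lie between genes, and the Ccdc102a and Cit windows lie in introns of those genes. The Ccdc130 and Trabd2b windows each hold 2 AP-1 sites. A window of this length around the summit held CAGCTG at 22.7% of all distal regions, CAGGTG at 9.07% and AP-1 at 41.4%. Distal means over 1 kb from an annotated start site. AP-1 was present at 43.3% of distal regions in every GM no dox list and no DM +dox list, close to that 41.4%.

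The lists differed in length and 1 library stood apart. Deposited lists held 51340, 46241 and 49496 peaks in DM +dox replicates 2 to 4, and 14710, 39721, 23078 and 49300 peaks in GM no dox replicates 1 to 4. The ranges overlapped, and the log2 difference in peak number, 0.78, had a two-sided exact permutation p of 0.114. It was 0.46 without GM no dox replicate 1 (exact permutation p = 0.2) and 0.33 with DM +dox replicate 1 kept (exact permutation p = 0.571). Background coverage solved from fold enrichment and p was 0.339 to 1.13 fragments per base over the 14 libraries. It was 0.771 in GM no dox replicate 1 and lowest, 0.339, in GM no dox replicate 2, so list length did not follow it. GM no dox replicate 1 had the shortest list, and every other list was therefore cut to its 14710 peaks with the highest −log10 p. The weakest peak kept had a −log10 p of 3.94 in that library and of 54.6 in DM +dox replicate 2. Of 8 myoblast markers, 2 to 5 had a peak within 1 kb of a start site in each cut list. Myod1 and Chrna1 (a subunit of the muscle acetylcholine receptor) had one in all 14 and Myf5, Des and Msc in none. In the deposited lists Des had such a peak in 13 of 14, Cdh15 and Ncam1 in 10 each, Myf5 in 6 and Msc in 3. Of 20 markers of other cell types, 1 to 4 had such a peak in each cut list. Cebpa had one in all 14 cut lists, Sox9 in 12, Runx2 in 6 and Pparg in 3, and the other 16 markers had none in any. In the deposited lists 13 of the 20 had none in any, Pparg had one in 13 lists and Pecam1, an endothelial marker, in 8.

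DM +dox lists resembled each other, and GM no dox lists each other, more than lists of the other end on average. The Jaccard index, the share of regions with a peak in both lists among those with a peak in either, averaged 0.656 within groups and 0.599 between them. Single pairs overlapped widely, from 0.535 to 0.757 within groups and from 0.464 to 0.687 between them. The separation of 0.0572 had a one-sided exact permutation p of 0.0571, where 0.0286 is the smallest the design allows. Pairs with GM no dox replicate 1 had the lowest indices, 0.464 to 0.591, and without it the separation was 0.0679 (exact permutation p = 0.1). Without DM +dox replicate 4 it was 0.0351 and without DM +dox replicate 3 it was 0.0415 (exact permutation p = 0.333 each), and over the 7 libraries left out in turn it ranged up to 0.0852. Lists with the same replicate number were often close. DM +dox replicate 4 had an index of 0.781 with DM no dox replicate 4, the highest of any pair of the 14 lists, and of 0.648 with DM +dox replicate 2.

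Regions that differed in peak presence were about equal in number on both sides. A peak was present in all 3 DM +dox lists and in no GM no dox list at 385 regions, 1.62% of all merged regions. The reverse held at 392 regions, 1.65%. Lists of equal length tie these counts to each other, so they measure exchange and not a net gain or loss. Most of these regions were weak where they were present. The mean rank of the higher regions in DM +dox, with 1 the strongest, had a median of 10356 of 14710, and 85.5% lay in the weaker part of the lists. The mean rank of the lower regions in GM no dox had a median of 8653. Without GM no dox replicate 1 there were 485 higher and 532 lower regions.

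Absence from a cut list was seldom absence of a peak. In the lists as deposited, GM no dox replicates 1 to 4 held a peak at 0, 323, 152 and 374 of the 385 higher regions, which follows the order of their list lengths. Only 9 higher regions had no deposited peak in any GM no dox list. At the 392 lower regions, DM +dox replicates 2 to 4 held a deposited peak at 389, 386 and 369, and none of the 392 lacked one in all 3 lists. The differences described here are therefore of strength relative to the other peaks of a list.

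The regions that differed were mostly distal. Of the higher regions, 198 lay in introns, 119 between genes, 53 at promoters, 10 in untranslated and 5 in coding exons. Of the lower regions, 173 lay in introns, 167 between genes, 43 at promoters, 3 in untranslated and 6 in coding exons. Promoters made up 38.8% of all merged regions and 57.1% of those present in all 7 lists. The median distance to a protein-coding start site was 19.4 kb for higher regions, 31.5 kb for lower regions and 9.97 kb for all regions. The share of peaks at promoters in whole lists did not separate the ends, at 48.8% ± 5.14 (SD, n = 3) in DM +dox and 45.3% ± 4.17 (SD, n = 4) in GM no dox (two-sided exact permutation p = 0.457).

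E-boxes set the higher and the lower regions apart. CAGCTG lay within 100 bp of the summit at 148 of 332 distal higher regions (44.6%, 95% Wilson interval 39.3 to 50) and at 39 of 349 distal lower regions (11.2%, 8.28 to 14.9). Distal regions present in all 7 lists held it at 24.3%, between these values. Without GM no dox replicate 1 the shares were 45.3% of higher and 11.1% of lower regions. CAGGTG followed the same order, at 20.5% of higher, 3.15% of lower and 7.11% of shared distal regions. At least 1 of these cores was present at 57.5% of higher and 14.3% of lower distal regions. Both cores were present at 25 higher regions (7.53%), at none of the 349 lower regions and at 1.62% of shared regions. The intervals cover counting error only, and regions are not replicates of a condition.

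RUNX sites were more frequent at lower than at higher distal regions, and the intervals of AP-1 sites overlapped. AP-1 sites were present at 36.1% of higher distal regions (95% Wilson interval 31.2 to 41.4), 43.3% of lower (38.2 to 48.5) and 47.2% of shared distal regions. RUNX sites were present at 25.3% of higher and 39.5% of lower distal regions, beside 33.7% of shared regions. The RUNX intervals (20.9 to 30.2 and 34.6 to 44.8) did not overlap. These intervals too cover counting error only, over regions chosen from the same lists. Among distal regions without either E-box core, AP-1 was present at 49 of 141 higher (34.8%) and 126 of 299 lower regions (42.1%), and RUNX at 43 of 141 (30.5%) and 121 of 299 (40.5%). In that subset the intervals overlap for both motifs.

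**Figure D1:**
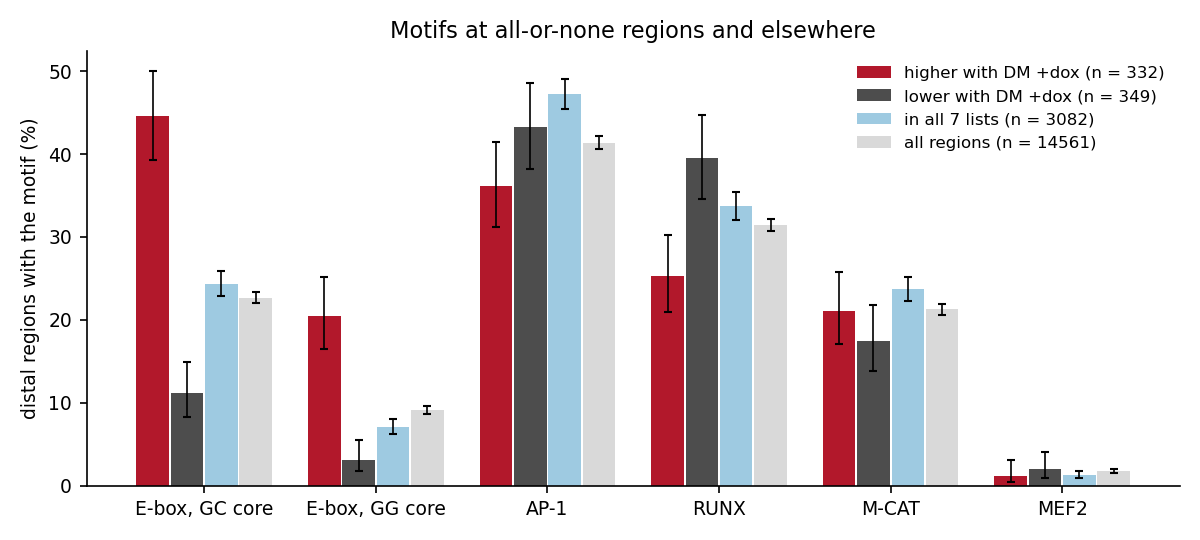
Percent of distal regions (y axis) with a motif within 100 bp of the summit, for 6 motifs (x axis; the GC core is CAGCTG and the GG core is CAGGTG) in regions with a peak in every DM +dox and no GM no dox list (higher), the reverse (lower), regions in all 7 lists and all regions, with bars at the share and 95% Wilson intervals. CAGCTG reached 44.6% of higher and 11.2% of lower regions, and RUNX 25.3% and 39.5%.

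The M-CAT site was present at 21.1% of higher, 17.5% of lower and 23.7% of shared distal regions. The site of MEF2, a partner of MyoD1 at muscle genes, was present at 1.20%, 2.01% and 1.30%. CACGTG, the E-box core of USF factors, was rare, at 14 of 332 higher (4.22%, 95% Wilson interval 2.53 to 6.95) and 4 of 349 lower distal regions (1.15%, 0.447 to 2.91), beside 3.80% of shared ones. GC boxes (GGGCGG) were present at 6.63% of higher and 4.87% of lower distal regions, against 11.4% of shared regions.

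The excess of E-boxes held close to the summit. Within 20 bp of it, CAGCTG was found at 14.8% of higher and 3.44% of lower distal regions. Within 50 bp, the shares were 29.5% and 6.30%. CAGGTG within 50 bp was found at 11.7% of higher and 1.43% of lower distal regions. AP-1 shares within 50 bp were 27.7% and 25.8%.

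**Figure D2:**
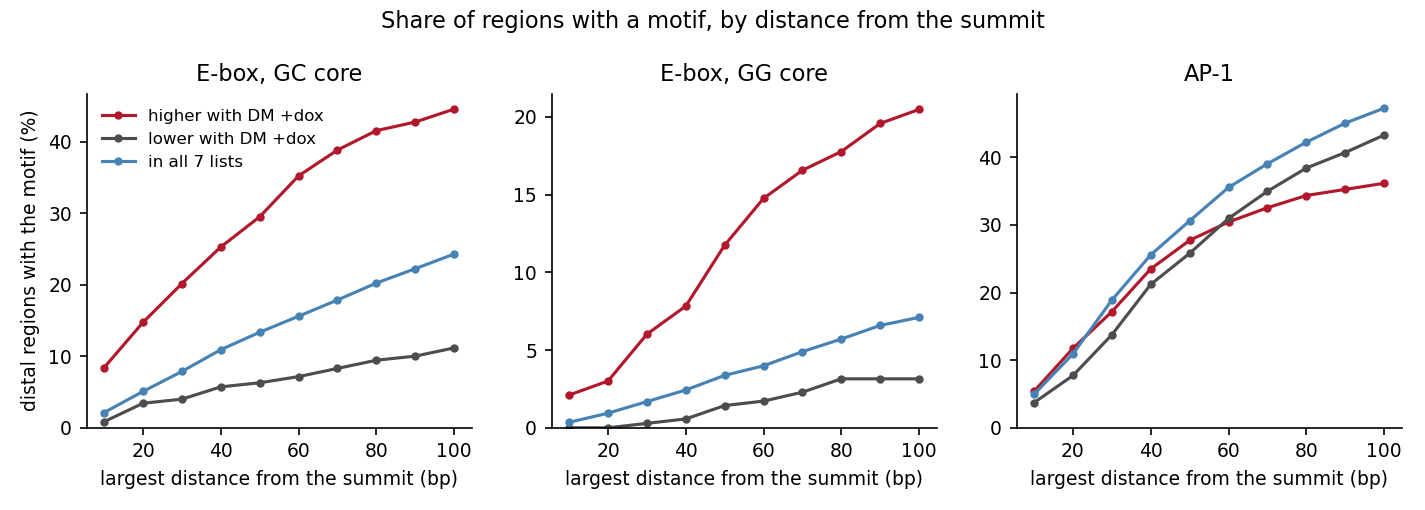
Percent of distal regions (y axis) with the E-box of GC core (CAGCTG), the E-box of GG core (CAGGTG) or AP-1 within a distance of the summit (x axis, bp), for higher, lower and shared regions; each point includes those nearer the summit. At 50 bp CAGCTG stood at 29.5% of higher and 6.30% of lower regions, and AP-1 at 27.7% and 25.8%.

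The same order was measured over whole lists, where each library gives 1 value. CAGCTG was present at 27.7%, 26.2% and 28.9% of distal peaks in DM +dox replicates 2 to 4. GM no dox replicates 1 to 4 had 19.6%, 19.5%, 19.9% and 21.0%. The groups did not overlap, and the difference of 7.62 percentage points reached the lowest p of a two-sided exact permutation test in this design, 0.0571 (adjusted p = 0.149 over 13 motifs). Within replicate numbers 2, 3 and 4 the difference was 8.18, 6.34 and 7.96 points. GM +dox had 22.5%, 21.0%, 22.0% and 24.1%, and DM no dox had 23.5%, 22.9% and 25.9%, so every list that received 1 treatment lay above the GM no dox mean of 20.0% ± 0.666 (SD, n = 4) and below the DM +dox mean of 27.6% ± 1.37 (SD, n = 3). Over all peaks, promoters included, the difference was 3.88 points (exact permutation p = 0.0571, adjusted p = 0.297), and 4.04 points without GM no dox replicate 1. At promoter peaks alone it was 0.623 points (exact permutation p = 0.229).

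CAGGTG was more frequent in every DM +dox list than in any other of the 14 lists. DM +dox had it at 10.1%, 10.5% and 9.97% of distal peaks and GM no dox at 8.20%, 6.08%, 6.80% and 5.95%, with no overlap (difference 3.45 points, exact permutation p = 0.0571, adjusted p = 0.149). GM +dox lists had 6.40% to 6.99%, within the range of GM no dox, and DM no dox lists had 7.71% to 8.56%. RUNX sites were present at 31.7%, 31.4% and 30.2% of distal peaks in DM +dox and at 31.9%, 33.6%, 33.8% and 33.2% in GM no dox (difference −2.04 points, exact permutation p = 0.0571, adjusted p = 0.149). AP-1 sites did not separate the lists, with a difference of 0.203 points (exact permutation p = 0.971) and a GM no dox range of 38.9% to 47.8% that enclosed 2 of the 3 DM +dox values.

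**Figure D3:**
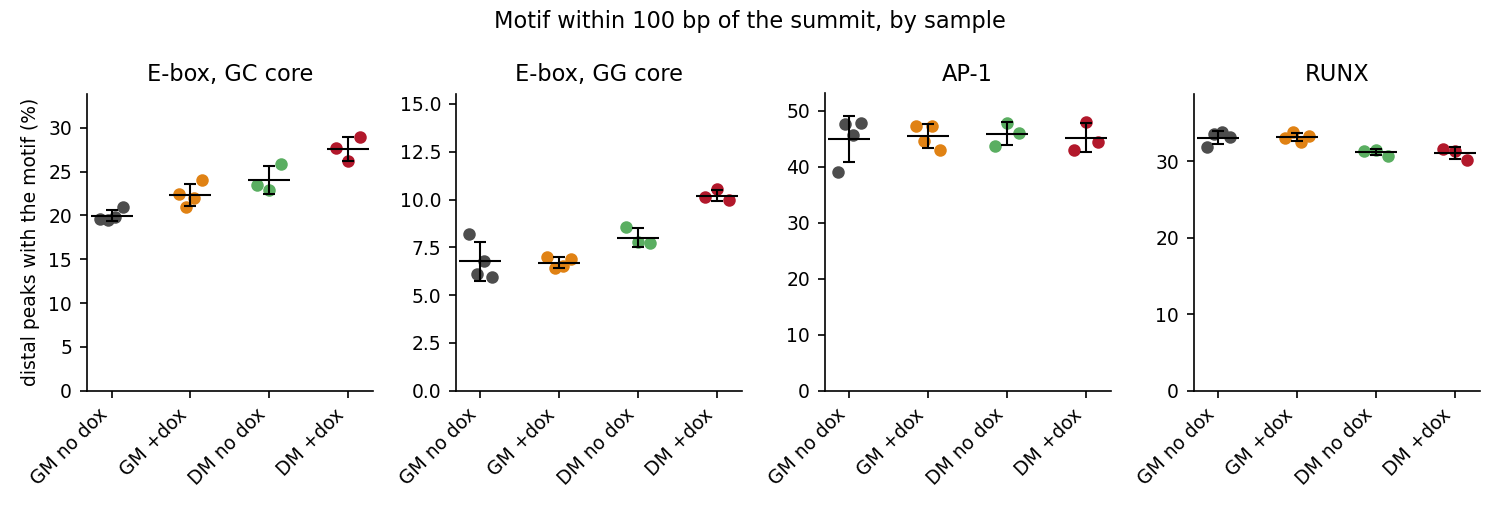
Percent of distal peaks with each of 4 motifs (GC core is CAGCTG, GG core is CAGGTG) within 100 bp of the summit (y axis, from 0) in each of the 14 cut lists by group (x axis); points are libraries and bars are mean ± SD. CAGCTG averaged 20.0% in GM no dox and 27.6% in DM +dox with the other groups between, and the AP-1 values of all 4 groups overlapped.

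Peaks present in all 7 lists were compared by rank. Ranks were turned into normal scores, in SD units of a list, and fitted with limma; a positive difference means a stronger peak in DM +dox. At an adjusted p under 0.05, 4 of 7178 regions ranked higher (0.0557%) and 20 ranked lower (0.279%) in DM +dox. The median difference over all regions tested was 0.09. With the replicate number as a block, 72 regions ranked higher (1.00%) and 145 lower (2.02%). The labels do not say that a shared replicate number marks a shared day or batch. Residual degrees of freedom were 5 without the block and 2 in the blocked fit. GM no dox replicate 1 has no partner in DM +dox and adds nothing to the difference in that fit, but its peaks help decide which regions are tested. With it left out of the blocked fit, 8672 regions were tested, and 20 ranked higher and 44 lower. All 24 regions called without the block were called with it in the same direction. Without the block, leaving out GM no dox replicate 1 gave 0 higher and 0 lower calls (1103 regions at an unadjusted p under 0.05). Leaving out replicate 3 of GM no dox or of DM +dox also gave 0 and 0 (961 and 676 regions), and leaving out DM +dox replicate 4 gave 0 and 1. Without DM +dox replicate 2 there were 5 and 72, without GM no dox replicate 2 there were 2 and 0, and without GM no dox replicate 4 there were 7 and 31. With the block, leaving out 1 library gave 13 to 97 higher and 44 to 209 lower calls. Ranking by fold enrichment instead of −log10 p gave 0 and 0 without the block, with 738 regions at an unadjusted p under 0.05, and 4 and 7 with it, so the single regions named here depend on the measure of peak strength.

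The 4 regions that ranked higher all held CAGCTG near the summit, beside 16.3% of all 7178 regions tested and 24.3% of the distal ones. The first lies in an intron of Pknox1 (chr17:31574550-31575026), which encodes a homeodomain partner of PBX proteins. Its peak ranked 1133, 1255 and 950 in DM +dox replicates 2 to 4 and 14240, 9545, 13696 and 12861 in GM no dox replicates 1 to 4. The ranks of the 2 ends did not overlap (difference 2.65, SE 0.35, adjusted p = 0.0225). It ranked 2542, 4409 and 4892 in DM no dox and 3682, 9446, 5200 and 10564 in GM +dox.

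The second lies in an intron of Myom2 (chr8:15072515-15073305), the gene of an M-band protein that ties thick filaments together in the sarcomere. It ranked 926, 1355 and 988 in DM +dox and 13025, 9788, 9950 and 13386 in GM no dox (difference 2.31, SE 0.32, adjusted p = 0.0225). In the groups with 1 treatment it ranked 897, 2188, 559 and 5658 with GM +dox and 1488, 3103 and 2031 with DM no dox. All 7 of these lists placed it ahead of every GM no dox list.

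The other two lie near Iqcn and Prag1. The Iqcn region (chr8:70710215-70711000) is in a coding exon of that gene and within 10 kb of Jund, which encodes an AP-1 subunit. It ranked 311, 1241 and 412 in DM +dox and 9056, 6718, 11902 and 8294 in GM no dox (difference 2.08, adjusted p = 0.0324). DM no dox placed it at 904, 562 and 814, as far forward as DM +dox, and GM +dox at 4757, 4147, 10636 and 4946. The Prag1 region (chr8:36155393-36155910) lies 60.8 kb from the start of Prag1, a pseudokinase gene, and within 1 kb of a non-coding transcript start. It ranked 1838, 1732 and 1827 in DM +dox and 10473, 7881, 10298 and 10116 in GM no dox (difference 1.58, adjusted p = 0.0384).

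The next 4 regions by p were just past the threshold and lie near Mtss1 (adjusted p = 0.0570), Rnaseh2a (0.0580), 5031439G07Rik (0.0605) and Trim8 (0.0605). All 4 passed with the block. The Mtss1 region, in a coding exon of a gene for an actin and membrane scaffold, ranked 1093, 4506 and 1347 in DM +dox and 11064, 13612, 10316 and 8284 in GM no dox. The 5031439G07Rik region was strong at both ends, at ranks 97, 93 and 55 against 2007, 1141, 1079 and 2368.

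Of the 20 regions that ranked lower, 11 held an AP-1 site and 1 held CAGCTG. None of the 4 higher ones held an AP-1 site. Over all regions tested, 23.3% held AP-1 and 16.3% CAGCTG. Of the lower regions, 18 were distal and 11 of these held AP-1, beside 47.2% of all distal regions tested. The sets are too small to tell these AP-1 counts from the distal share. The strongest in GM no dox was the intergenic region 66.2 kb from Ccdc130 (chr8:84336015-84336846), whose 2 AP-1 sites are printed above. It ranked 9, 20, 195 and 133 in GM no dox and 3973, 3182 and 9217 in DM +dox (difference −2.35, SE 0.36, adjusted p = 0.0324). DM no dox kept it at 201, 251 and 360, and GM +dox at 39, 35, 1525 and 3462, so it stayed near the top of the lists with serum starvation alone.

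The region with the smallest p among the lower ones lies in an intron of Pik3cd (chr4:149661983-149662552), the gene of a catalytic subunit of phosphoinositide 3-kinase. It ranked 996, 2661, 1753 and 3274 in GM no dox and 11493, 11401 and 13428 in DM +dox (difference −2.05, adjusted p = 0.0324). The Dad1 region (chr14:54222225-54222864), 31.5 kb from the gene of an oligosaccharyltransferase subunit, ranked 2535, 1953, 4559 and 3173 in GM no dox and 10914, 14420 and 13319 in DM +dox. DM no dox had it at 11984, 8720 and 8940, close to DM +dox, and GM +dox at 2884, 1792, 4624 and 7134, close to GM no dox.

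An intron of Nfix, which encodes a nuclear factor I protein of fetal muscle, held a region (nearest start site G430095P16Rik, chr8:84742158-84743064) that ranked 19, 360, 278 and 179 in GM no dox and 6431, 9010 and 3222 in DM +dox (difference −2.11, adjusted p = 0.0352). The Ccdc102a intron region (chr8:94914241-94914984) ranked 90, 453, 594 and 3072 in GM no dox and 8688, 11458 and 11707 in DM +dox. Regions in introns of Slc22a4, a cation transporter gene, and Stn1, a telomere-capping gene, and an intergenic region 147 kb from Chic2 made up the first 8. The remaining 12 had the nearest start sites of Mea1, Irf2, Mgll, Gpr39, Ctnnbip1, Mid1, Basp1, Rdm1, Arsi, Ppif, Gfra1 and Rem2, of which the Gpr39 region, at the promoter of a zinc-sensing receptor gene, and the Rdm1 region lay within 1 kb of a start site.

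**Figure D4:**
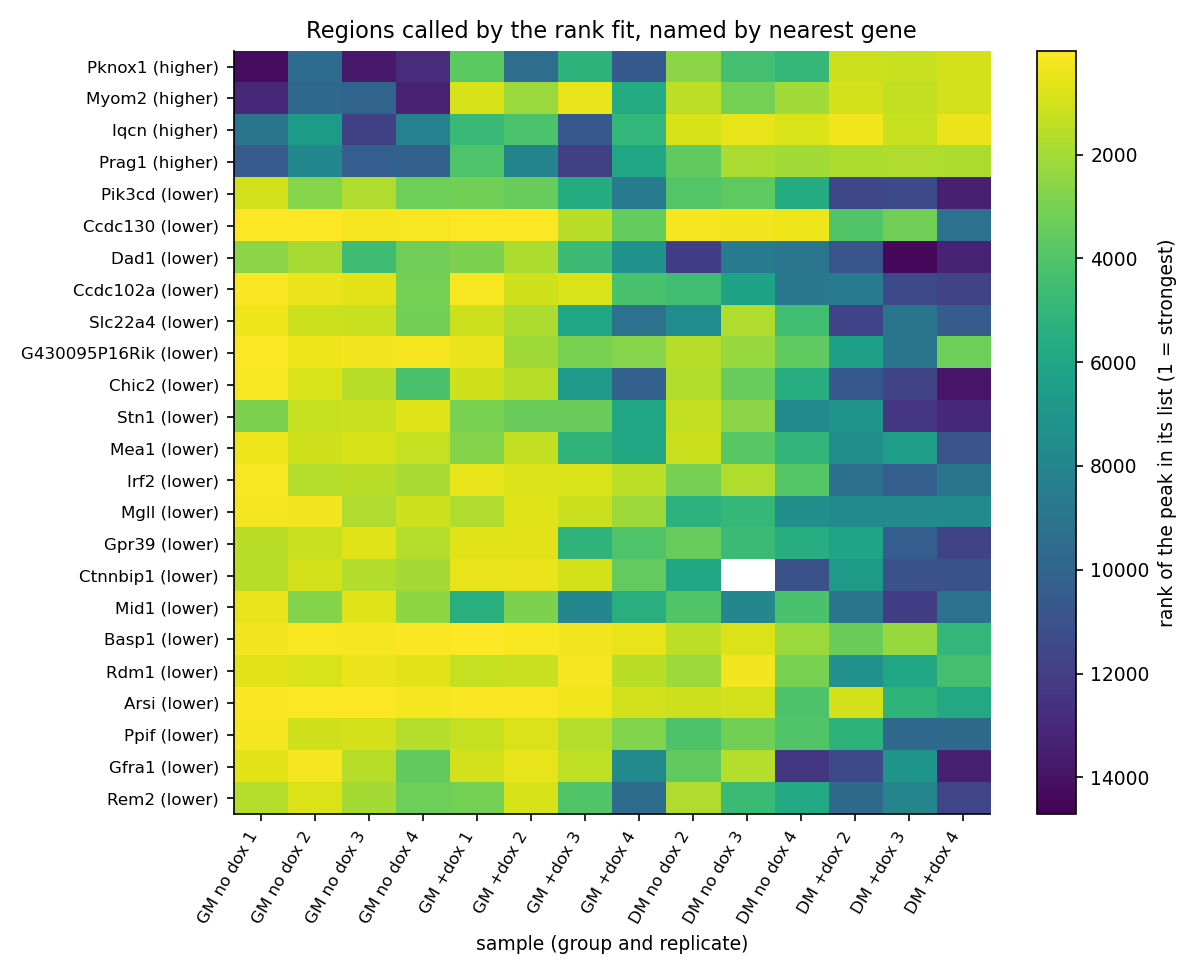
Rank of the peak in each cut list (colour, 1 = strongest, yellow; white = no peak) for the 24 regions that passed the rank fit (y axis, nearest gene) in the 14 libraries (x axis). The 4 higher regions had median ranks of 969 to 1305 in DM +dox lists and 8713 to 11749 in GM no dox lists, with DM no dox at 2015 to 2473.

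With the block, CAGCTG and AP-1 kept this order in larger sets of called regions. CAGCTG was present at 43 of 72 regions that ranked higher and 15 of 145 that ranked lower, and AP-1 at 22 of 72 and 64 of 145. Over all regions tested the shares were 16.3% for CAGCTG, 23.3% for AP-1 and 19.2% for RUNX. CAGCTG was at 59.7% of the distal regions that ranked higher and 10.8% of those that ranked lower, against 24.3% of all distal regions tested. RUNX sites were present at 16 of 72 and 56 of 145, the reverse of the order without the block, 2 of 4 and 5 of 20. AP-1 was at 46.9% of the distal regions that ranked lower with the block, against 47.2% of all distal regions tested. Among distal regions tested, the median difference was −0.27 with AP-1 but neither E-box core (1022 regions). It was −0.34 with RUNX but neither core (720 regions), against −0.16 over all 3082. The 749 distal regions with CAGCTG, which may also hold AP-1 or RUNX, had a median difference of −0.00415. Of these, 49.7% had a difference above 0, against 39.4% of all distal regions.

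Among the all-or-none regions, those with the strongest peaks lay outside the classical muscle genes. Presence and absence refer to the cut lists, here and below, unless deposited lists are named. The strongest higher region lies 13.8 kb from 1700017B05Rik (chr9:57276173-57276753) and ranked 656, 2054 and 2343 in DM +dox. It was absent from 3 of 4 GM +dox lists and ranked 1825, 9654 and 4635 in DM no dox. The Stra6l intron region (chr4:45851574-45852032), in a gene for a retinol-binding protein receptor, ranked 2552, 2154 and 2903 in DM +dox, 3883, 2349 and 5575 in DM no dox, and 9860 in GM +dox replicate 1, the only GM +dox list that held it. The Ergic1 promoter region held CAGGTG and ranked 1165, 3613 and 3803. The Tmem64 region, with CAGCTG and CAGGTG, ranked 1167, 4134 and 3964. The Zfp330 and Hdhd3 regions were present in all 3 DM no dox lists and in no GM +dox list.

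The strongest lower region lies 4.83 kb upstream of Mt4, a metallothionein gene (chr8:94131974-94132477), and ranked 1028, 2776, 1505 and 1675 in GM no dox. It ranked 1121, 4703, 2313 and 6851 in GM +dox and had no peak in any cut DM no dox or DM +dox list. As deposited, all 3 DM +dox lists held a peak there. The Cops8 region ranked 76, 947, 3219 and 3883 in GM no dox and 3714, 4026 and 10173 in DM no dox. The Trabd2b region, 84.6 kb from the gene of an inhibitor of Wnt proteins, ranked 166, 1465, 3839 and 3251 in GM no dox and was present in 1 of 3 DM no dox lists. The region 25.8 kb from Sfrp2, which encodes another Wnt antagonist, ranked 2272, 1395, 2387 and 4520 in GM no dox and was present in all 7 lists with 1 treatment, as was the Pxylp1 region. The Cit region, in an intron of the gene for citron kinase of cytokinesis, was present in all but GM +dox replicate 4 of those 7 lists.

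Genes of muscle and growth pathways were read through gene lists, by any region in the gene body or 10 kb around it. Over 13052 protein-coding genes with a merged region, 399 (3.06%) had an all-or-none higher region and 289 (2.21%) a lower one. Of 13 myogenic regulators, 8 had 22 regions in all, and none had an all-or-none region or a rank call in either fit. That list is too short to tell this from the shares over all genes. Of 38 sarcomere genes, 20 had 36 regions, with 1 gene higher by presence (Myom1) and 1 by rank (Myom2). The Myom1 region, in an untranslated exon of its neighbour Myl12b, was weak, at ranks 9516, 13904 and 11365 in DM +dox. The median rank difference over 14 sarcomere regions in all 7 lists was 0.40, beside 0.09 over all regions.

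Among 16 fusion genes, 13 had 49 regions, and 1 was higher by presence. It lies 2.19 kb upstream of Itga7, the laminin receptor subunit of muscle, held both E-box cores and an AP-1 site, and ranked 3118, 4054 and 9000 in DM +dox. GM +dox replicates 1, 2 and 4 held it at 11660, 8994 and 14638, and DM no dox replicates 2 and 4 at 5533 and 13146. A region of Cdon, a cell surface receptor that promotes myogenesis, ranked 758, 1272 and 2254 in DM +dox and 7770, 6532, 4570 and 14225 in GM no dox and passed only with the block (adjusted p = 0.0417, against 0.134 without it). The median difference of 16 fusion regions was −0.43. Among 17 genes of calcium handling and the neuromuscular synapse, 1 was higher by presence, the promoter of Atp2a2, the sarcoplasmic calcium pump, at ranks 13532, 9635 and 9434 in DM +dox.

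Adhesion genes held regions of both kinds at shares near those of all regions, 2.02% of their 99 regions in each direction. Of 32 adhesion genes, 27 had a region; Itga7 and Cdh13 (T-cadherin) had a higher and Cd44 (the hyaluronan receptor) and Sdc4 (a heparan sulphate proteoglycan) a lower region. The Sdc4 intron region held AP-1 and ranked 8678, 7265, 8800 and 8740 in GM no dox, and all 7 lists with 1 treatment still held it, at 7995 to 14304. Of 26 matrix genes, 25 had 82 regions; Col4a2 and Col12a1 had a higher region, and a region at the promoter of Fbn1 (fibrillin) was lower. With the block, regions of Col1a1 and Mmp2 also ranked lower (adjusted p = 0.0370 and 0.0363).

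Cell cycle genes held no all-or-none region, in a list too short to tell this from the shares of 3.06% and 2.21% over all genes. Of 25 cell cycle and replication genes, 24 had 42 regions, and 1 passed with the block, an intron of Hmga2, a chromatin protein of proliferating progenitors, at ranks 336, 1970, 2572 and 1294 in GM no dox and 7056, 11943 and 6847 in DM +dox (adjusted p = 0.0363, against 0.0674 without it). Of 12 genes of cell cycle exit, Btg2, an antiproliferative gene, had a higher region with CAGCTG. Of 24 AP-1 and serum response genes, all had a region, 67 in all; Atf3, a stress-induced factor of the AP-1 and CREB families, had a higher intron region, and the Iqcn region counted for Jund. Of 15 YAP and TEAD genes, Tead1 had 2 higher intron regions, both with CAGCTG. The first was absent from all GM +dox lists and ranked 3022, 14323 and 10764 in DM no dox. Igfbp4 was the 1 gene of 22 in the TGF-beta and IGF list with a higher region, at its promoter. None of 18 Id and Notch genes had any, again too few genes to tell this from the shares over all genes. Runx2, a bone and cartilage factor held here as a marker of another cell type, had a lower intron region.

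A list of 11 loci of interest to the study was examined on its own (Mef2a, Id3, Mymx, Cdh23, Myod1, Myog, Mymk, Cdh15, Itga3, Cadm4 and Mcam). These loci held no all-or-none region and no rank call in either fit. Their 24 regions, 4 of them in all 7 lists, are too few to tell this from the all-or-none shares of 1.62% and 1.65% over all regions. Myog and Mymk, the genes of myogenin and myomaker, had no peak within 10 kb in any cut list. The Myod1 region in all 7 lists had its summit 0.54 kb from the start site and did not cover that site. It ranked 2132, 8691 and 9639 in DM +dox and 17, 5008, 174 and 6487 in GM no dox, with overlapping groups (difference −1.33, adjusted p = 0.363). Reads of the transgene in coding exons of Myod1, also any within this region, cannot be told apart from those of the gene. The Id3 promoter, of an inhibitor of MyoD1 dimers, ranked 3155, 4246 and 4386 in DM +dox and 4760, 4846, 4104 and 7488 in GM no dox (difference 0.26, adjusted p = 0.702). The 1 region within 10 kb of Mymx, the gene of a fusion micropeptide, lay 0.9 kb from the start site of its neighbour Slc29a1. It had a difference of −0.92 (adjusted p = 0.258). Mymx had no peak within 1 kb of its own start site in any of the 14 lists, cut or deposited. An intron region of Cdh23, an adhesion gene, ranked 5869, 8419 and 12932 in DM +dox and 3301, 2824, 3208 and 2769 in GM no dox without overlap (difference −1.19, adjusted p = 0.136). An intron region of Cdh15, the M-cadherin gene, had a peak in all 8 GM lists, in 1 of 3 DM +dox lists and in 0 of 3 DM no dox lists.

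At the regions that differ, the groups with 1 treatment lay at different distances from the ends. No list can lie beyond the ends there, since the regions were chosen by the ends. These 7 lists took no part in choosing the regions. GM +dox replicates 1 to 4 held a peak at 29.4%, 23.1%, 21.6% and 31.7% of the 385 higher regions and at 78.3%, 82.7%, 64.5% and 49.0% of the 392 lower regions. DM no dox replicates 2 to 4 held 50.1%, 46.0% and 58.4% of the higher and 48.5%, 40.6% and 25.0% of the lower regions. DM no dox was thus nearer to DM +dox on both sides. The score, the percent of higher minus the percent of lower regions with a peak, was −42.2 ± 18.0 (SD, n = 4) for GM +dox and 13.5 ± 17.4 (SD, n = 3) for DM no dox. All GM +dox scores were below all DM no dox scores, and the difference of −55.7 had a two-sided exact permutation p of 0.0571, the smallest this design allows. It ranged from −36.2 to −64.0 over 20 alternatives. With regions chosen without replicate 1 of GM no dox it was −55.8, and with regions chosen without its replicate 4 the groups overlapped (exact permutation p = 0.114).

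The ends reach 100 and −100 by choice of the regions, so each end list was also scored at regions chosen without it. GM no dox then had scores of −53.3, −75.4, −60.4 and −24.2, and DM +dox had 5.27, 50.2 and 50.1. On this scale GM +dox averaged −38.6 ± 18.4 (SD, n = 4) and DM no dox 11.9 ± 17.3 (SD, n = 3). The values of GM +dox (−56.6 to −13.5) overlapped those of GM no dox, and those of DM no dox (−0.696 to 31.5) overlapped those of DM +dox. With the lists of 1 treatment averaged over the choices of regions, the GM and the DM lists did not overlap. At single choices they could. With regions chosen without GM no dox replicate 4, GM +dox replicate 4 scored 12.9 and DM no dox replicate 2 scored 6.47.

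**Figure D5:**
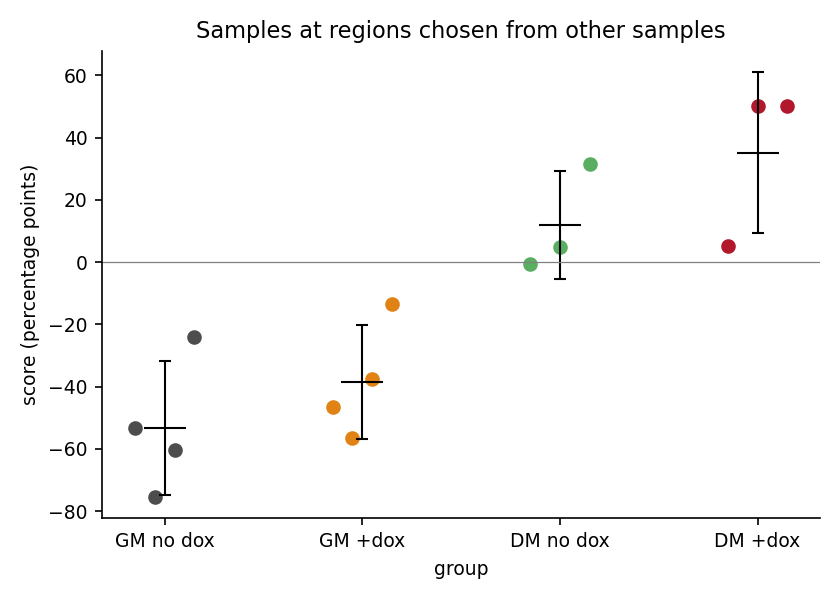
Score of each list (y axis, percentage points: percent of higher regions minus percent of lower regions with a peak) by group (x axis), each end list scored at regions chosen without it and the other lists averaged over those choices; points are libraries and bars mean ± SD. The 8 GM lists had scores from −75.4 to −13.5 and the 6 DM lists from −0.696 to 50.2.

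Single regions showed the same asymmetry. Of the 385 higher regions, 163 (42.3%) were in no GM +dox list and 87 in no DM no dox list, and 45 were in none of the 7 lists with 1 treatment. All 3 DM no dox lists and no GM +dox list held 37 of them, such as those near Zfp330, Hdhd3 and Tead1, and all 4 GM +dox lists and no DM no dox list held 3. Of the 392 lower regions, 138 were in no DM no dox list and 17 in no GM +dox list. All 4 GM +dox lists and no DM no dox list held 49, such as that of Mt4, and the reverse pattern held at 0.

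The position of these groups differed little with the motif. GM +dox lists held on average 28.7% ± 6.40 (SD, n = 4) of the 156 higher regions with CAGCTG and 24.9% ± 4.85 of the 229 without it. DM no dox lists held 53.6% ± 6.42 (SD, n = 3) and 50.1% ± 6.36. The differences were within the spread between lists. At the 4 regions called higher by rank, median ranks were 3880 to 7918 in GM +dox and 2015 to 2473 in DM no dox lists. At the 20 called lower they were 984 to 4128 and 3232 to 5262.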

How the data were processed

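ATAC-seq cuts open DNA with a transposase and sequences the fragments. The authors aligned reads to mm10 with the nf-core/atacseq pipeline, removed blacklisted regions and ran MACS2 separately per library to find narrow peaks. The deposited lists give each peak a fold enrichment over background (a ratio), a −log10 p and a −log10 q, and a score, with q under 0.05. Depth in reads is not given, so background coverage was solved from fold and p, which holds for counting error only. Lists were cut to the 14710 strongest peaks by −log10 p and overlapping peaks (at least 1 bp) were merged. GRCm38 sequence, GENCODE M21 genes, Python 3.11.15, scipy 1.17.1, R 4.3.3 and limma 3.58.1 were used. Motifs were searched by exact letters on both strands within 100 bp of the summit, and motifs may overlap: CANNTG includes the other E-boxes. Besides the sites spelled in the results, CRE was TGACGTCA, MEF3 was TCAGGTTTC and the CTCF core was CCAGGGGGC, while MEF2 and CArG sites have degenerate letters. A promoter lies within 1 kb of an annotated start site.

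Groups came from the labels, which call the replicates biological. Peak numbers, shares and scores were tested with exact permutation tests over libraries, and rank normal scores of regions present in all 7 lists with limma (eBayes, Benjamini-Hochberg adjustment over all regions). No count model was fitted, since the lists hold no counts. Whether replicate numbers pair the samples is not settled by the labels. Deviations from group means in replicates 2, 3 and 4 correlated at 0.212, 0.119 and 0.411 between the ends. DM +dox replicate 2 correlated more with GM no dox replicate 1 (0.294), and DM +dox replicate 3 more with GM no dox replicate 4 (0.166). Named regions were, per direction, the 8 with the smallest limma p, the 6 all-or-none regions with the strongest mean rank, gene list members with such a region, and 11 loci of the study. Regions, gene lists and tests were chosen with earlier results of these data known. On simulated ranks the fit was tested for recovery of known shifts. The list of DM no dox replicate 1 was not used here, and 1 member of the matrix gene list is not reported here.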

Additional observations from a re-analysis of the deposited data

Results flagged for a closer look

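Groups of 4 libraries were examined 84 times, over peak numbers, promoter and motif shares, position scores and ranks at named regions. In 4 of them a value lay far from the others of its group, where chance gives about 1 in 20. All 4 were ranks at named regions, which made up only part of the 84. The peak near Iqcn ranked 10636 in GM +dox replicate 3, against 4147 to 4946 in the other GM +dox lists. The peak near Prag1 ranked 7881 in GM no dox replicate 2, against 10116 to 10473 in the others. The peak near Ccdc102a ranked 3072 in GM no dox replicate 4, against 90 to 594. The peak near Stn1 ranked 5891 in GM +dox replicate 4, against 2961 to 3374.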

How the results depend on the processing

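With 3 against 4 libraries no two-sided exact permutation p can pass 0.05, so the tests of shares and of position could not pass under any setting with these libraries only. The difference in CAGCTG share over whole lists kept its sign under all 16 alternatives, as did that of CAGGTG, and the position of GM +dox against DM no dox under all 20. The causes of the changes listed here were not tested, beyond the fewer peaks or libraries of a setting. The CAGCTG share of distal higher regions was 52.7% with lists cut to 7355 peaks and 56.8% with DM +dox replicate 1 kept. All-or-none regions, higher and lower, numbered 167 and 192 in those shorter lists, 2572 and 35 in all deposited peaks, 3152 and 3171 within replicate 2, and 1073 and 1111 within replicates 3 and 4. With DM +dox replicate 1 kept there were 202 higher regions, and without each library in turn 441 to 755 higher and 444 to 724 lower. The separation was 0.0531 with DM +dox replicate 1 kept (one-sided exact permutation p = 0.0286).

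The promoter share difference changed sign in all deposited peaks (−7.82 points) and within replicate 2 (−0.795), and that of AP-1 at distal peaks alone (0.203). The RUNX difference over all peaks, −2.28 points, was −0.0423 in all deposited peaks (exact permutation p = 0.971). Among other motifs over all peaks, M-CAT changed sign in shorter lists (−0.433), within replicates 3 and 4 (−1.20) and without DM +dox replicate 2, GM no dox replicate 1 or GM no dox replicate 4, with a range of −1.40 to 1.19 over the libraries left out. In all deposited peaks CACGTG was at −0.0682, CRE −0.0374, MEF2 0.154, MEF3 0.0140, CArG −0.00547 and GC box −5.04. Within replicate 2 MEF2 was at 0.116, MEF3 0.0340, GC box −0.258 and CTCF −0.0408.

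Rank calls, higher and lower, were 0 and 6 in shorter lists, 0 and 0 when ranked by fold enrichment, 0 and 0 on quantile-normalized log2 fold enrichment, 0 and 0 within replicates 3 and 4, 4 and 10 with DM +dox replicate 1 kept, and 435 and 493 over regions in at least 3 lists, where an absent peak took the lowest score. Without each library in turn they ranged over 0 to 7 and 0 to 72. With the replicate block they were 72 and 145. Alternatives chosen after seeing the data joined the block with fold enrichment ranks (4 and 7), with shorter lists (2 and 10) and with each library left out (13 to 97 and 44 to 209). Beside these rank calls, the replicate block moved the M-CAT difference to −0.0272, and no other result changed sign or crossed its threshold with it. Its exact sign-flip test over 3 pairs cannot go below 0.25.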

Other observations

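A few regions were singled out after their values were seen and stand for no group of genes. The Fgf2 intron region (chr3:37360545-37361270) ranked 1804, 989, 2333 and 2100 in GM no dox and 5588, 10085 and 5491 in DM +dox (limma, adjusted p = 0.0487 with the block and 0.113 without it). The region upstream of Pdgfb ranked 1559, 206, 388 and 565 in GM no dox and 2242, 2463 and 4122 in DM +dox (adjusted p = 0.0443 with the block and 0.192 without it). The region upstream of Runx3 was among the strongest peaks of GM no dox, at 366, 369, 364 and 223, and ranked 2822, 6277 and 2224 in DM +dox (adjusted p = 0.0363 with the block and 0.0674 without it). The Runx1 intron region ranked 5467, 2875, 1201 and 2560 in GM no dox and 10104, 4159 and 10097 in DM +dox (adjusted p = 0.0420 with the block and 0.224 without it). Of the 12 regions of Runx2, 1 was all-or-none and none was called by rank in either fit. That intron region was present in all GM no dox and no DM +dox list, 3 of 4 GM +dox lists and 1 of 3 DM no dox lists. An intron region of Runx3 and regions 127 and 357 kb upstream of Runx1 had the same pattern at the ends. The region upstream of Runx1 at 127 kb was present in 3 of 4 GM +dox and in 0 of 3 DM no dox lists.

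Of the 24 regions called by rank without the block, 7 (29.2%) lay on chromosome 8, as did 24 of the 217 called with the block (11.1%) and 467 of the 7178 tested (6.51%). This was noticed after the calls were made and was not tested.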
